A study of Mus musculus with 6 samples.

Results

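The megakaryocyte and erythroid lineage genes described here are 9 genes, Gata1, Klf1, Epor, Tfrc, Slc4a1, Itga2b, Gp5, Treml1 and Pf4, of 22180 genes with a value on the arrays. They were chosen by name as genes of platelet-forming and red cell-forming cells, with earlier results of these data known. Each was read at its single probe set that carried 1 gene symbol, and 9 of 9 were bright enough to be tested. The arrays hold Ly6D-negative common lymphoid progenitors, which are bone marrow cells on the way to T, B and natural killer cells. The 3 mutant samples came from OcnCre+;iDTR+/- mice, and the 3 control samples from OcnCre-;iDTR+/- mice, with 1 array per sample. The mice of both groups were 6 to 8 weeks old, carried the inducible diphtheria toxin receptor allele (iDTR) and were injected daily with diphtheria toxin for 4 weeks. In mutants the osteocalcin promoter drives Cre, so the deletion is aimed at osteocalcin-expressing bone cells. The cells were sorted as low for lineage markers, positive for Kit, Sca and CD127, and negative for Thy1.2 and Ly6D. The labels do not say whether a sample was 1 mouse or a pool, and the errors below cover the spread among these 6 arrays alone, whose number limits the precision.

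Megakaryocytes, which shed platelets, and erythroid cells, which become red cells, share a common precursor and much of their gene regulation. GATA1 binds GATA motifs and switches on genes of both lineages, and KLF1 then drives the erythroid side. Common lymphoid progenitors lie on another branch of blood formation, and these genes, apart from Tfrc, which dividing cells of any kind use, mark other lineages. At issue in the comparison is whether such genes stand at other levels in the sorted fraction once osteocalcin-expressing cells have been removed. In a sorted fraction profiled in bulk, fewer cells of a type and less RNA per cell cannot be told apart.

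Because GATA1 is itself a member, the promoters of the members were searched for its motif. The search covered AGATAA and AGATAG, and with another first base TGATAA and TGATAG, on both strands, in windows of 300 bases, from 250 before to 50 after each gene's start (RefSeq, GRCm38.p6). Of 8 members with a window (all but Slc4a1), 4 held at least 1 match, and 29.8% of 32851 windows of this length held one. Gp5 had 3 matches, and windows with 2 or more made up 7.77% of all. The Epor, Klf1 and Pf4 windows held 1 each. The windows with a match are printed from 5′ to 3′ along the gene, with the matches in capitals.
Gp5, chr16:30310732-30311031, minus strand: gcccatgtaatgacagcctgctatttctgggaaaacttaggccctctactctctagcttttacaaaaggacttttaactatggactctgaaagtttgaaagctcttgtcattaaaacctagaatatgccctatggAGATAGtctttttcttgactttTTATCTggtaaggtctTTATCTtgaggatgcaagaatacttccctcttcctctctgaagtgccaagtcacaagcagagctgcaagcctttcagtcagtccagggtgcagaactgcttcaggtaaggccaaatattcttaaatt
Epor, chr9:21963527-21963826, minus strand: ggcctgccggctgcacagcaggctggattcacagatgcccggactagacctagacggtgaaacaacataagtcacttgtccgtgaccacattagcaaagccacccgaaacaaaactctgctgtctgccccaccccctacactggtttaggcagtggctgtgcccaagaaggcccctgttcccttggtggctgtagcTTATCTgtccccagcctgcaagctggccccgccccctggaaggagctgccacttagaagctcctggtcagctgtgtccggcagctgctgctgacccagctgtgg
Klf1, chr8:84901732-84902031, plus strand: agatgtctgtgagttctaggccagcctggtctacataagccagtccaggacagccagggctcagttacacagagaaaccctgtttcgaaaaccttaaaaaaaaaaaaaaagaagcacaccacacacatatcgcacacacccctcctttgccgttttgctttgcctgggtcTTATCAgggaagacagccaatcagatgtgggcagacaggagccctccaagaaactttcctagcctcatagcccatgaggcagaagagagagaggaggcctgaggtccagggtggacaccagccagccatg
Pf4, chr5:90772185-90772484, plus strand: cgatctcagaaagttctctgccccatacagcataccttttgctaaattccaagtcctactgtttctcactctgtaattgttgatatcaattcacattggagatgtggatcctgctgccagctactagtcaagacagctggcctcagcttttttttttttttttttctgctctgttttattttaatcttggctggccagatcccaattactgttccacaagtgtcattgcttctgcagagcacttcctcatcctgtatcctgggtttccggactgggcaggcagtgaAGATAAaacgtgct
The windows of Gata1, Itga2b, Treml1 and Tfrc held none of these letters. A match is a run of letters and was not measured as a binding site.

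One array stood apart from the rest. Mutant replicate 2 had correlations with the others of 0.935 to 0.954 across probe sets, while the other 5 correlated among themselves at 0.973 to 0.989. The Y-linked gene Eif2s3y was low on mutant replicate 3 and control replicate 1 (4.77 and 4.88) and at 7.31 to 7.85 on the other 4 arrays. Each group thus held arrays with low and with high Eif2s3y. The X-linked gene Xist was at 10.72 and 11.04 on the arrays with low Eif2s3y. On the other 4 it was uneven, at 8.03 and 5.57 on mutant replicates 1 and 2, and 8.07 and 6.57 on control replicates 2 and 3. Of the progenitor and sort markers, the interleukin-7 receptor gene Il7r stood at 9.72 to 9.80 in mutants and 9.81 to 10.35 in controls, and the lymphoid gene Dntt at 10.61 to 10.93 in mutants and 10.93 to 11.04 in controls. The receptor genes Kit and Flt3 were at 6.96 to 7.30 and 6.62 to 7.01 in mutants, against 6.96 to 7.41 and 6.71 to 7.36 in controls. Ly6d, whose product was excluded in the sort, was at 7.00 to 7.57 in mutants and 7.18 to 8.25 in controls. The mutant mean was below the control mean for 8 of 9 such markers tested, against 57.5% of all genes tested, and none passed. Their median difference was −0.21. That of all genes tested was −0.04, and −0.12 with the lowest 60% of genes not tested. Ly6a and Rag1, also listed as markers, had no probe set to themselves. For 4 of the 9 tested, Il7r, Dntt, Rag2 and the lymphoid factor gene Ikzf1 (−0.45 ± 0.13, SE), all mutant values were below all control values, as for 9.99% of all genes tested. The gap between the groups was only 0.00039 for Dntt, 0.0070 for Rag2 and 0.016 for Il7r, and 0.19 for Ikzf1. Values are log2 intensities, and since RMA gives no detection call, whether a dim gene is above background is unknown.

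Among the 9 genes, the mean was higher in mutant than in control progenitors for 7 and lower for 2, with a median log2 difference of 0.17. Of the 13308 genes tested, 42.5% had a higher mutant mean, with a median of −0.04. The all-gene median moved with brightness. It was 0.03 with no filter on dim genes and −0.12 with the lowest 60% of genes not tested. Gata1, Gp5, Treml1 and Pf4, all with a higher mutant mean, fell under that stricter filter. Array medians were 5.18 and 5.13 on mutant replicates 2 and 3, and 5.06 to 5.07 on the others. Epor was the only member whose values did not overlap between groups, all 3 mutant values being above all 3 control values, as in 5.40% of the genes tested. It was also the only one with an unadjusted p under 0.05 in limma, reached in this direction by 2.01% of genes. No member passed an adjusted p of 0.05, and over the whole array 0 of 13308 genes passed (0%), with 1068 at an unadjusted p under 0.05. In an unmoderated test 0 passed as well, with 879 at that level. Adjusted p-values of the members ran from 0.594 to 0.913. The 95% interval of the difference held 0 for 8 of the 9.

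**Figure D1:**
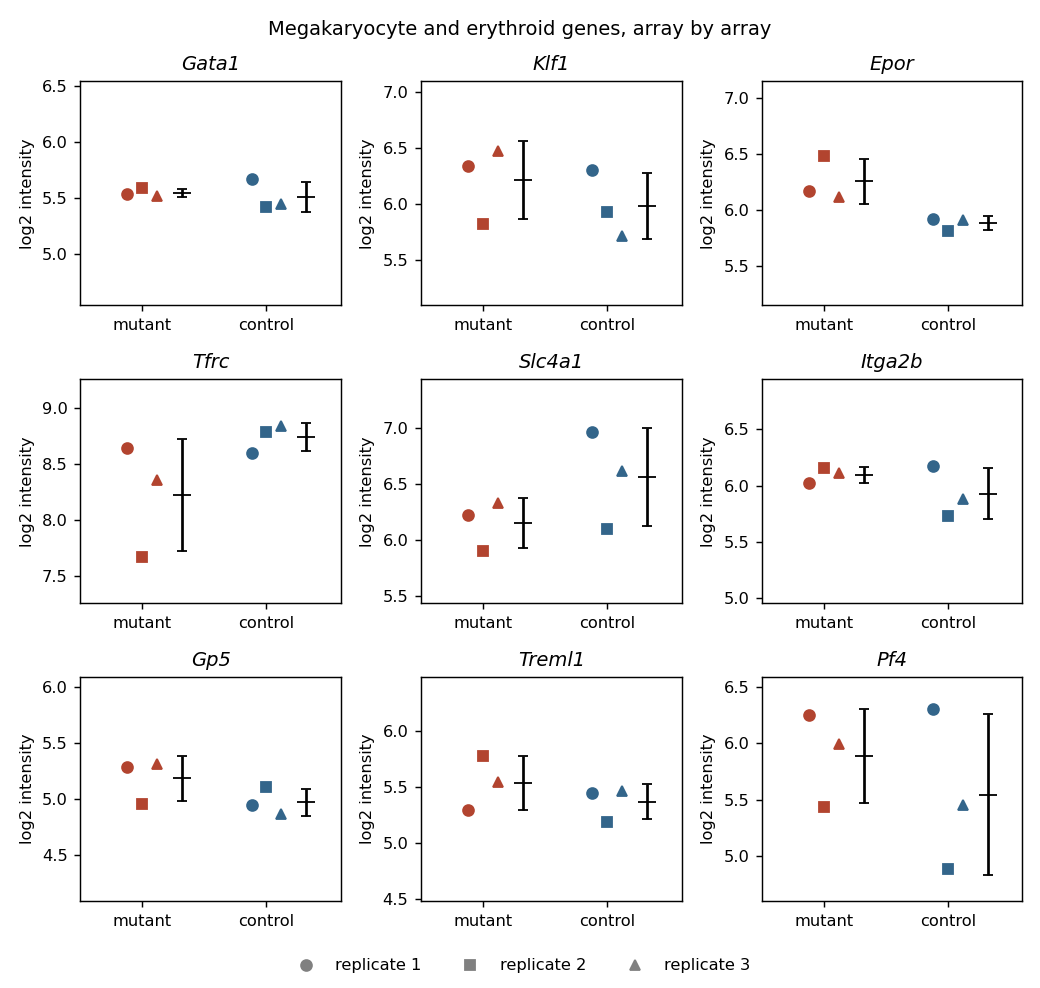
Log2 intensity of the 9 genes (1 panel each, every vertical axis spanning the same length on the log2 scale) on the 3 mutant arrays (red, left) and the 3 control arrays (blue, right), with the symbol giving the replicate number and the bar the mean ± SD (n = 3 each). The groups separate for Epor alone, Tfrc is low on mutant replicate 2, and Pf4 spreads widely in both groups.

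The lineage regulators did not separate the groups. Gata1, the factor named above, was at 5.53, 5.59 and 5.51 in mutant replicates 1, 2 and 3, against 5.66, 5.42 and 5.45 in the controls. The mutant values lay inside the control range, and the means differed by 0.04 (95% interval −0.24 to 0.31; adjusted p = 0.913 in limma). The sign of this difference turned on centring arrays on their medians (−0.03), after cyclic loess (−0.01) and without control replicate 2 (−0.01).

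Klf1, the erythroid regulator, was at 6.34, 5.82 and 6.48 in mutants and at 6.30, 5.93 and 5.72 in controls. Mutant replicates 1 and 3 were above the highest control, and replicate 2 lay among the controls. The mean was 6.22 ± 0.35 in mutants and 5.99 ± 0.30 in controls (SD, n = 3 each), a difference of 0.23 ± 0.21 (SE, adjusted p = 0.688 in limma). With single arrays dropped the difference was between 0.10, without control replicate 3 or mutant replicate 3, and 0.43, without mutant replicate 2.

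Epor encodes the erythropoietin receptor, through which the kidney hormone keeps red cell precursors alive. Its values were 6.17, 6.49 and 6.11 in mutants, against 5.93, 5.82 and 5.92 in controls. The lowest mutant lay 0.19 above the highest control. The mean was 6.26 ± 0.20 in mutants and 5.89 ± 0.06 in controls (SD, n = 3 each), 1.29-fold higher or 0.37 ± 0.13 on the log2 scale (SE, 95% interval 0.06 to 0.68). In limma the unadjusted p was 0.0245 and the adjusted p over all genes 0.594. The difference stayed between 0.25 and 0.44 under the alternatives that can move it, at 0.26 without mutant replicate 2, which had the highest value. Between the 2 arrays with low Eif2s3y it was 0.19, and among the 4 with high Eif2s3y 0.46. In the same comparison 6 of the 9 members kept 1 sign on both sides. The other 3 did not: Pf4 was at −0.31 and 0.67, Itga2b at −0.06 and 0.28, and Gata1 at −0.15 and 0.13, low Eif2s3y first.

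The remaining erythroid members leaned the other way. Tfrc encodes the transferrin receptor, which brings iron into red cell precursors and into any dividing cell. It stood at 8.64, 7.67 and 8.36 in mutants and at 8.60, 8.78 and 8.84 in controls. Mutant replicates 2 and 3 were below all controls, and replicate 1 was just above the lowest of them. The difference was −0.51 ± 0.24 (SE, 95% interval −1.06 to 0.03; adjusted p = 0.594 in limma). It was −0.24 without mutant replicate 2, −0.72 without mutant replicate 1, and −0.33 after cyclic loess, which removes trends in brightness between arrays.

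Slc4a1 encodes band 3, the anion exchanger of the red cell membrane. It was at 6.22, 5.90 and 6.33 in mutants and at 6.97, 6.10 and 6.61 in controls. Only control replicate 2 fell within the mutant range, and the other controls lay above it. The difference was −0.41 ± 0.23 (SE, adjusted p = 0.596 in limma), −0.20 without control replicate 1 and −0.64 without control replicate 2.

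**Figure D2:**
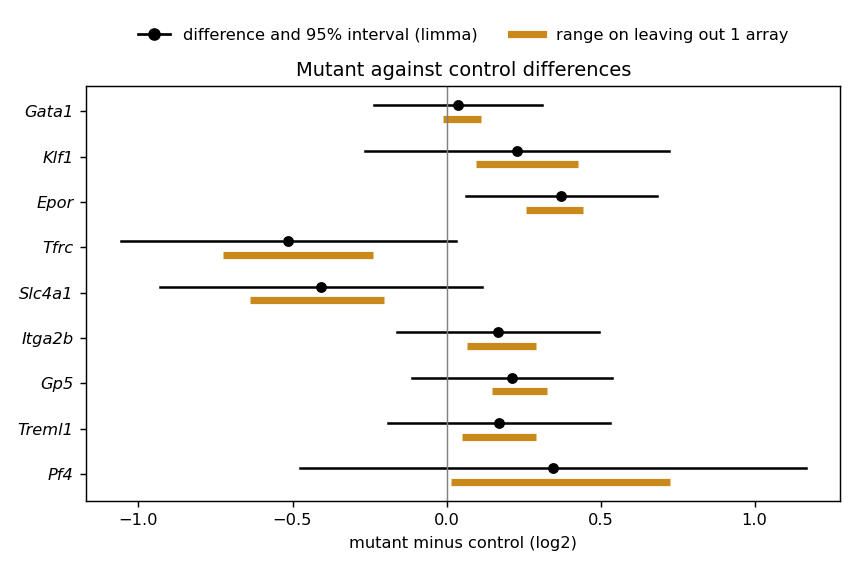
Mutant minus control difference on the log2 scale for each gene (vertical axis), as the black point with its 95% interval from limma, and as the orange bar from the lowest to the highest difference on leaving out each of the 6 arrays in turn. Only the interval of Epor lies off 0, and the bar of Pf4 reaches from 0.01 to 0.72.

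The 4 megakaryocyte members all had higher mutant means, and each 95% interval held 0. Itga2b encodes integrin alpha IIb (CD41), the chain that pairs with beta 3 as the platelet fibrinogen receptor. It was at 6.02, 6.15 and 6.11 in mutants and at 6.17, 5.73 and 5.88 in controls. All 3 mutants were above 2 of the controls and below control replicate 1. The difference was 0.17 ± 0.14 (SE, adjusted p = 0.663 in limma), from 0.07 without control replicate 2 to 0.29 without control replicate 1.

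Gp5, a subunit of the platelet receptor for von Willebrand factor, lay close to the limit for testing (a mean of 4.84), at 5.29, 4.95 and 5.31 in mutants and 4.95, 5.10 and 4.87 in controls. Replicates 1 and 3 of the mutants were above all controls, and mutant replicate 2 was among them. The difference was 0.21 ± 0.14 (SE, adjusted p = 0.612 in limma). Dropping mutant replicate 3 gave 0.15, dropping mutant replicate 2 gave 0.33, and cyclic loess gave 0.13.

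Treml1, whose product TLT-1 sits in platelet alpha granules, was at 5.29, 5.77 and 5.54 in mutants and at 5.45, 5.19 and 5.46 in controls. Here mutant replicate 2 was the highest array. The difference of 0.17 ± 0.16 (SE, adjusted p = 0.686 in limma) became 0.05 without that array, 0.08 without control replicate 2 and 0.29 without mutant replicate 1.

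Pf4, the gene of the alpha granule chemokine platelet factor 4, varied most between arrays, over a range of 1.42. It was at 6.25, 5.43 and 5.99 in mutants and at 6.30, 4.88 and 5.45 in controls. The highest and the lowest arrays were both controls. The mean was 5.89 ± 0.42 in mutants and 5.54 ± 0.72 in controls (SD, n = 3 each), a difference of 0.35 ± 0.36 (SE, adjusted p = 0.714 in limma). It was 0.01 without control replicate 2 and 0.72 without control replicate 1, and 0.17 and 0.58 without mutant replicates 1 and 2.

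Genes around the erythropoietin receptor were compared next. The receptor signals through the kinase JAK2 to STAT5, which switches on feedback inhibitors such as CISH. Of 9 such genes tested, the mutant mean was higher for 5 and lower for 4, with a median of 0.02, and none passed. Cish was at 7.48, 6.69 and 7.06 in mutants and at 6.46, 6.37 and 6.14 in controls. Its groups did not overlap, as for 5.40% of all genes tested in the higher direction. Its difference was 0.75 ± 0.20 (SE, adjusted p = 0.594 in limma). Ptpn6, which encodes the phosphatase SHP-1 that switches the receptor off, was at 8.34, 8.10 and 7.81 in mutants and at 8.50, 8.75 and 8.61 in controls. Its groups did not overlap either (−0.54 ± 0.16, SE, adjusted p = 0.594 in limma), as for 9.99% of all genes in the lower direction. Jak2 differed by −0.26 ± 0.17, Stat5a by 0.02 ± 0.12 and Stat5b by −0.13 ± 0.11 (SE). All these proteins also serve other cytokine receptors.

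**Figure D3:**
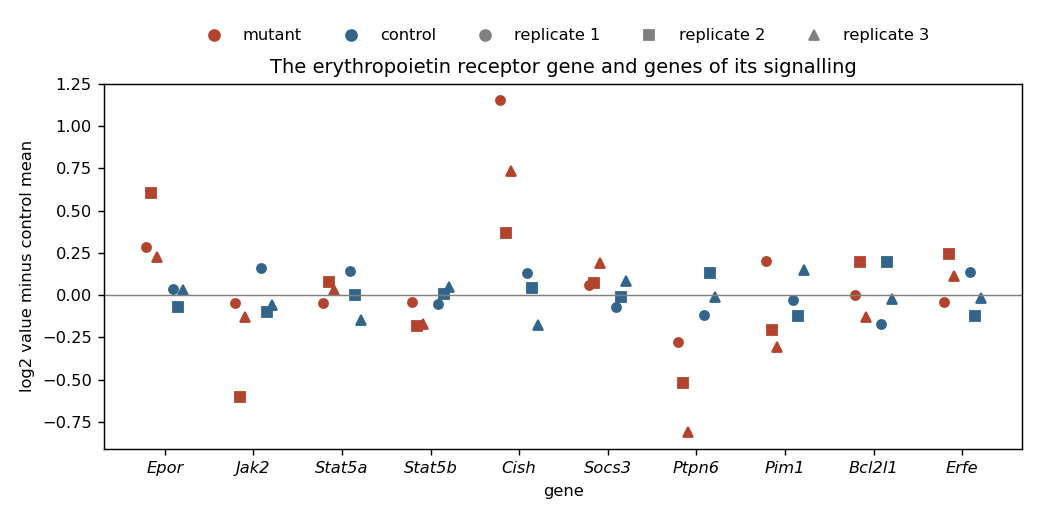
Log2 value minus the control mean (vertical axis) for Epor and 9 genes of its signalling, with mutants in red to the left, controls in blue to the right and symbols giving the replicate. Epor and Cish lie above all controls and Ptpn6 below them on the 3 mutant arrays, while the other genes overlap.

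Transcription factors that work with GATA1 stood near the whole array in their counts. Of 10 tested, the mutant mean was higher for 3 and lower for 7, with a median of −0.07, and none passed. For all genes tested, the mutant mean was the lower one in 57.5%, and the median was −0.04. Fli1, an ETS factor of megakaryocytes that lymphoid cells also express, was at 8.85, 8.52 and 8.69 in mutants and at 9.03, 9.17 and 9.22 in controls. These groups did not overlap, as for 9.99% of all genes tested in the lower direction. The Fli1 difference was −0.45 ± 0.13 (SE, adjusted p = 0.594 in limma). Gata2, which precedes GATA1 in early precursors, differed by 0.09 ± 0.37, Tal1 by −0.06 ± 0.12, Nfe2, a factor for platelet release, by −0.17 ± 0.22 and the progenitor factor gene Myb by −0.16 ± 0.14 (SE).

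Iron and haem genes had a median difference below 0, as Tfrc did. Of 16 tested, the mutant mean was higher for 5 and lower for 11, with a median of −0.16, and none passed. The groups did not overlap for Aco1 in the higher direction and for 3 genes, Slc25a37, the haem synthesis gene Cpox and the ferritin gene Fth1, in the lower, against 5.40% and 9.99% of all genes tested. The gap between the groups was small, at 0.0066 for Cpox, 0.012 for Slc25a37, 0.021 for Aco1 and 0.033 for Fth1. Without mutant replicate 2 the difference of Fth1 was −0.085 in place of −0.31, and that of Cpox −0.13 in place of −0.24. Aco1, which encodes the iron sensor that protects Tfrc messenger RNA when iron is scarce, was at 5.78, 5.92 and 5.58 in mutants and at 5.53, 5.56 and 5.46 in controls (0.25 ± 0.13, SE, adjusted p = 0.594 in limma). Slc25a37, the mitochondrial iron importer gene, was at 7.69, 7.56 and 7.37 in mutants and at 7.93, 7.70 and 7.72 in controls (−0.25 ± 0.13, SE, adjusted p = 0.596 in limma). Tfr2, the second transferrin receptor gene, was too dim to be tested, at 4.64 ± 0.04 in mutants and 4.64 ± 0.16 in controls (SD, n = 3 each).

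Red cell structural genes had 9 of 12 tested members with a higher mutant mean (median 0.06), and none passed. Add2, a gene of the membrane skeleton, was at 6.03, 6.29 and 6.46 in mutants and at 5.90, 5.88 and 6.03 in controls (0.32 ± 0.14, SE, adjusted p = 0.594 in limma). Ank1, which encodes the ankyrin that ties band 3 to the skeleton, differed by 0.21 ± 0.13, opposite in sign to Slc4a1. The globin genes, Alas2 and Gp1ba were not analysed here, since they have no probe set to themselves in the annotation used.

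Platelet genes other than the members had 7 of 12 tested with a higher mutant mean (median 0.06), and none passed. P2rx1, an ATP-gated channel gene, differed by 0.15 ± 0.11, Gp9, a partner of GP5 in the von Willebrand factor receptor, by 0.15 ± 0.14, and Itgb3, the partner of Itga2b, by 0.09 ± 0.15 (SE). P2rx1 was at 0.092 without mutant replicate 1 and Gp9 at 0.035 without control replicate 2. A further 7 of the 19 with a value were too dim to be tested. Among them was Vwf, the von Willebrand factor gene itself, at 4.73 ± 0.12 in mutants and 4.59 ± 0.09 in controls (SD, n = 3 each).

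Across arrays, Pf4 stood in an order that cut across the groups: control replicate 1, mutant replicate 1, mutant replicate 3, control replicate 3, mutant replicate 2 and control replicate 2, from high to low. The same order was found for 20 of the other 13307 genes tested (0.150%) and for 0 of the other 8 members. Gata2 was one of them, at 6.73, 5.76 and 6.22 in mutants and at 6.91, 5.53 and 5.99 in controls. Mcpt8, a protease gene of basophils, was another, at 10.59, 9.58 and 10.17 in mutants and at 10.93, 8.89 and 9.98 in controls. These genes, and the others of related lineages in the plot by array, were picked after their values were seen.

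**Figure D4:**
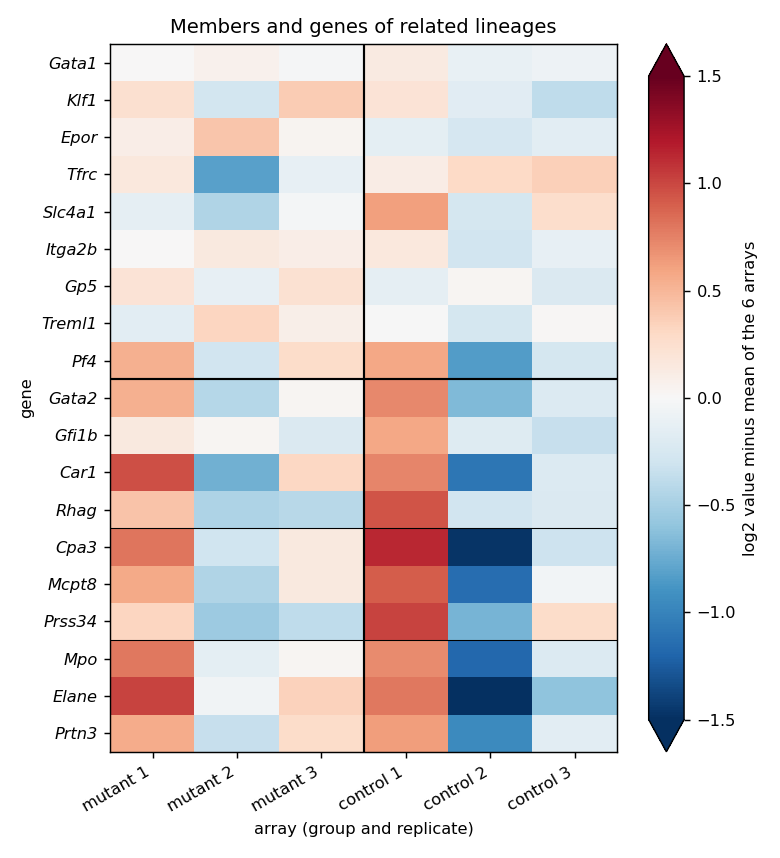
Log2 value minus the mean over the 6 arrays (colour, cut off at 1.5 either way) for the 9 genes (top block) and for genes of early megakaryocyte and erythroid, of mast cell and basophil, and of granulocyte precursors (blocks below), by array. The genes of the lower blocks were picked after their values were seen. Replicate 1 is the highest array of its own group in both groups for these picked genes and for Pf4, and for 0 of the other 8 members. Over the lists of the first lower block, that held for 5 of 10 regulators and 7 of 12 red cell genes tested.

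Markers of mast cells, basophils and eosinophils, which also use GATA1 and GATA2, stood in the same order in their mean, and 2 of the 8 tested did so singly. The mean log2 level over 13 of 13 genes was 6.41, 5.71 and 6.15 in mutants and 6.72, 5.57 and 5.95 in controls. Of the 8 bright enough to be tested, the mutant mean was higher for 4 and lower for 4, and none passed. The mast cell protease genes Mcpt4 and Cma1 were near the bottom of the scale, at 3.22 to 3.84 and 3.42 to 3.68 in mutants and at 3.16 to 3.62 and 3.24 to 3.41 in controls. Myeloid markers (17 of 17) averaged 9.39, 8.48 and 8.80 in mutants and 9.22, 8.49 and 8.68 in controls. The immediate early genes, which respond to cell handling, averaged 8.21, 6.99 and 7.35 over 16 of 16 in mutants and 7.59, 6.49 and 7.17 in controls. Their mutant mean was higher for 15 of 16, against 42.5% of all genes tested, with a median difference of 0.42. Among them 2 (Egr3 and Junb) had an unadjusted p under 0.05 in limma, as did 2.01% of all genes tested in the higher direction. None of the 16 passed. This is the direction of the 7 members with a higher mutant mean. The part of these cells, or of handling, in the levels or the differences of the members was not tested.

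Genes with array patterns nearest to a member were found by the distance between their 6 values, each centred on its own mean, among 13307 genes. For Pf4 they were Prtn3, the neutrophil protease gene (distance 0.18), Cyp11a1 (0.35) and Ptgs2 (0.36). For Tfrc they were Gtf2a2 (0.08), Dynlt3 (0.09) and Zfp207 (0.10), each lowest on mutant replicate 2 as Tfrc was. For Slc4a1 the nearest were farther off, with Zfp943 at 0.28, Fn3krp at 0.33 and Nepro at 0.38. The other 6 members varied over less than 1 on the log2 scale, and no neighbours were sought for them.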

How the data were processed

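Arrays of 3 mutant and 3 control samples were grouped by the sample titles, which also give the replicate numbers. RNA of the flow-sorted cells was extracted with Trizol per the labels' protocols, then amplified as cDNA with NuGEN Ovation chemistry and biotin-labelled. The authors deposited log2 intensities per probe set, computed by RMA according to the submitters' processing notes. The RMA version, the annotation they used and the build were not given in the sources used here. RMA subtracts background, brings the arrays to a common distribution and combines the probes of a set.

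The table held 41345 probe sets, of which 23521 had 1 gene symbol in a platform annotation table, 1814 had several and 16010 had none. For each of 22180 genes the probe set brightest on average across all 6 arrays was used. Genes in the lowest 40% (mean under 4.84) were left untested. The 2-sided moderated test of limma 3.58.1 (R 4.3.3; lmFit, eBayes) compared the groups over 13308 genes, with Benjamini-Hochberg adjusted p-values and a threshold of 0.05, and was tested on simulated data. No test of a list was made. Figures were drawn with matplotlib 3.10.9. In each of the 5 pathway lists (regulators, erythropoietin signalling, iron and haem, red cell, platelet) the 2 tested genes with the lowest p and a few fixed genes were named; from the marker lists, counts are given with genes as examples. The members and lists were chosen with earlier results of these data known. Alternatives changed the dim-gene filter, probe set rule, variance model, array weights, normalization, replicate block and arrays included. A fit with the Y-linked level as a block and one without replicate 1 of both groups were chosen after seeing the data.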

Additional observations from a re-analysis of the deposited data

How the results depend on the processing

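Of the 19 alternatives, 8 (filters, probe set rules, variance models and balanced blocks) leave a member's difference of means unchanged by construction. Under the other 11, 93 of 99 differences of the members kept their sign and stayed on the same side of the threshold. Gata1 took the other sign after cyclic loess (−0.0082) and with arrays centred on their medians (−0.026), and ran from −0.010, without control replicate 2, to 0.12, without replicate 1 of both groups, when arrays were left out. Array weights took Klf1 (0.54, adjusted p = 0.0225 in limma), Tfrc (−0.42, adjusted p = 0.0277) and Gp5 (0.33, adjusted p = 0.0355) past the threshold. That setting gave 2960 genes past it over the whole array, with a weight of 5.20 on mutant replicate 3 and 0.21 on mutant replicate 2, estimated from only 3 arrays per group. Leaving out 1 array gave 0 to 4 genes past the threshold (4 without mutant replicate 1, 1 without mutant replicate 2), and 6 to 7 members with a higher mutant mean. The members' median was 0.067 to 0.21 on leaving out 1 array and 0.32 without replicate 1 of both groups. With the lowest 60% of genes not tested, 5 members were left, and 3 of them had a higher mutant mean, because fewer genes were tested. Same-numbered arrays deviated from their group means with correlations of 0.13, 0.20 and −0.13 across genes, so the numbers were not taken as pairs. Mutant replicates 1 and 2 correlated best with the control of their own number, and mutant replicate 3 with control replicate 1 (0.20). Whether same-numbered samples shared a batch was not tested. With the replicate block 0 genes passed, and 1062 had an unadjusted p under 0.05. In limma with that block the unadjusted p was 0.035 for Slc4a1, 0.044 for Tfrc and 0.045 for Epor. It was 0.076 for Pf4 and higher for the other members. The count of 7 members with a higher mutant mean and their median of 0.17 could not move. By construction, a balanced block keeps each member's difference: Gata1 0.04, Klf1 0.23, Epor 0.37, Tfrc −0.51, Slc4a1 −0.41, Itga2b 0.17, Gp5 0.21, Treml1 0.17 and Pf4 0.35. The median of all genes tested was −0.04, and −0.11 with arrays centred on their medians. Dim members such as Gp5 have values close to the limit for testing, and no detection call shows how far above background they are.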

Other observations

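Genes of early granulocyte precursors were bright in this lymphoid fraction and differed between arrays of the same group. Elane, the neutrophil elastase gene, was at 10.56, 9.49 and 9.89 in mutants and at 10.34, 8.05 and 8.94 in controls, and Mpo, the myeloperoxidase gene, at 11.45, 10.51 and 10.68 in mutants and 11.36, 9.48 and 10.44 in controls. The basophil gene Prss34 was at 10.54, 9.67 and 9.83 in mutants and at 11.23, 9.52 and 10.49 in controls. Car1, a carbonic anhydrase gene of erythroid precursors, was at 9.04, 7.35 and 8.39 in mutants and at 8.81, 6.98 and 7.86 in controls, and the Rh-associated membrane gene Rhag at 6.10, 5.21 and 5.25 in mutants and 6.61, 5.37 and 5.45 in controls. These 5 genes were picked after their values were seen. In each of them the groups overlapped, and replicate 1 was the highest array of its own group in both groups. That held for 15 of 17 myeloid, 7 of 8 mast cell, basophil and eosinophil, and 13 of 16 immediate early genes tested. It held for 7 of 12 red cell, 6 of 12 platelet, 5 of 10 regulator, 6 of 16 iron and haem and 2 of 9 erythropoietin signalling genes. For progenitor and sort markers the count was 2 of 9, for the members 1 of 9, and for all genes tested 16.0%.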
